A study of Mus musculus with 22 samples.

Results

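Metallothioneins are small cysteine-rich proteins that bind zinc and copper, and zinc transporters carry zinc across cell membranes. The genes examined were the metallothionein genes Mt1, Mt2 and Mt3, the zinc importer gene Slc39a14 (ZIP14) and the zinc exporter gene Slc30a1 (ZnT1). They were found by symbol in the platform annotation and make up 5 of the 19935 genes tested. Each was measured by 1 probe set, the group of array probes that gives 1 value for a transcript. Expression was measured in the hypothalamus of mice with lipopolysaccharide (LPS, a bacterial cell wall component) or saline and with or without a working gene for the cytokine interleukin-6 (IL-6), and the study asked which genotype differences in the LPS response might relate to the absent fever of the IL-6 KO mice.

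The 22 arrays were of male C57bl6 mice aged 9 to 12 weeks. Mice labelled IL-6 KO and their WT littermates, born to the same parents, were housed singly. LPS from Escherichia coli was injected once into the abdomen at 120 µg/kg, the controls had saline, and tissue was taken 3 h after the injection. All were perfused with saline through the heart before dissection. There were 7 arrays of WT mice after LPS, 4 of WT mice after saline, 7 of KO mice after LPS and 4 of KO mice after saline. The KO was of the whole animal as far as the labels state, and which part of the Il6 gene was altered was not given. Whether every array came from its own mouse is not stated in the labels. The p-values therefore cover only the spread among arrays, which may be technical, and the number of arrays limits the precision.

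Mt1 and Mt2 are expressed in most tissues, and their transcription is raised by zinc, by glucocorticoids and by inflammatory cytokines such as IL-6. Zinc acts through the zinc-sensing factor MTF1, which binds metal response elements in the promoters of these genes and of Slc30a1. Mt3 is a brain form found mainly in neurons and astrocytes and is known to respond little to metals. ZIP14, the product of Slc39a14, brings zinc, iron and manganese into cells and is known as an IL-6 target of the liver in inflammation, while ZnT1, the product of Slc30a1, exports zinc at the plasma membrane.

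Promoter sequences are shown so that a reader can set the bases before the annotated starts of the genes side by side. Their part in the LPS values was not tested. Each run is the 250 bases before RefSeq's annotated start in assembly GRCm38.p6, plus strand, 5′ to 3′. Capitals mark matches to the metal response element core, spelled TGCACNC or TGCGCNC and searched on both strands. Mt3, Mt2 and Mt1 follow one another on chromosome 8 in that order. The windows are chr8:94152357-94152606 for Mt3, chr8:94172368-94172617 for Mt2, chr8:94178839-94179088 for Mt1 and chr1:191906531-191906780 for Slc30a1.
Mt1: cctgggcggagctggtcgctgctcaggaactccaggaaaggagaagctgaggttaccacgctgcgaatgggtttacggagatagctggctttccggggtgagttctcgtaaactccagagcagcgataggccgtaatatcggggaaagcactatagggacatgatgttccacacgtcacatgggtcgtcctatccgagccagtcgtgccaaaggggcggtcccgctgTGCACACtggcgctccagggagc
Mt2: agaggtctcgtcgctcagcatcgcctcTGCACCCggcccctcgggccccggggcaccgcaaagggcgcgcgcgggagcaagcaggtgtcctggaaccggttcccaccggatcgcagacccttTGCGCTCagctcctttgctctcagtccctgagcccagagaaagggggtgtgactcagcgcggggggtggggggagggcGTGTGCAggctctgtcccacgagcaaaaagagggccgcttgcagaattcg
Mt3: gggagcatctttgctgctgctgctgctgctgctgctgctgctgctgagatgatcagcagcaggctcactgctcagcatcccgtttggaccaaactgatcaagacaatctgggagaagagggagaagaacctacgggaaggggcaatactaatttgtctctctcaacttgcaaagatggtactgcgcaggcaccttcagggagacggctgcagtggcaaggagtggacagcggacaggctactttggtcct
Slc30a1: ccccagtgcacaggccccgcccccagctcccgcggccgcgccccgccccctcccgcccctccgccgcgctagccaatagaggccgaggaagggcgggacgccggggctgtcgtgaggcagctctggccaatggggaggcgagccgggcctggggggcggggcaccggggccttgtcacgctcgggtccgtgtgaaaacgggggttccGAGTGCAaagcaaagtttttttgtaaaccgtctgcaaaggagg
A promoter was matched for 4 of the 5 genes, and Slc39a14 had no entry. The Mt2 window held 3 core matches, with first bases at -223, -128 and -50 from the start. Windows with at least 3 matches made up 1.28% of the 27025 genes searched. The Mt1 window held 1 match at -23 and the Slc30a1 window 1 match at -43, and 21.3% of genes had at least 1. The Mt3 window held none. The glucocorticoid response element, spelled GNACANNNTGTNC, matched once, in Mt1 at -94 (GGACATGATGTTC), and in 0.381% of genes. The STAT element TTCNNNGAA matched none of the 4 windows and 7.18% of genes. These 2 motifs were searched on both strands too, and no match overlapped a core match. A match describes letters and not a bound site, and no match says only that the letters are not in this window. Bases after the annotated start, or farther upstream, were not searched. The counts therefore do not cover the whole promoter of any gene, and elements outside the window are missed.

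The deposited values are log2 differences from the median array, so genes could not be ranked by abundance, nor the labelled tissue checked by the level of its markers. Values of Il6, the targeted gene, overlapped between the genotypes. In LPS arrays they ranged from -0.10 to 0.28 in WT arrays and from -0.0059 to 0.61 in KO arrays, and after saline from -0.17 to -0.11 in WT and from -0.16 to -0.077 in KO. Il6 was called higher with LPS in arrays labelled KO, at 0.36 (SE 0.08, adjusted p = 0.0193, limma), and not in WT, at 0.21 (SE 0.08, adjusted p = 0.457, limma). The interaction for Il6 was 0.15 (SE 0.12, adjusted p = 1.0, limma). Which part of the gene was altered is unknown, so these values do not settle the labels, and KO below means arrays labelled KO. In 4 arrays genes of neighbouring tissues stood high. Ttr of the choroid plexus was at 4.62 in WT saline replicate 1 and 2.80 in WT LPS replicate 5, and the pituitary gene Gh was at 3.96 in KO saline replicate 2 and 3.76 in KO LPS replicate 3. These arrays were singled out after their values were seen. The array number in the titles was unevenly spread over the groups: arrays 1 to 11 held 5 WT LPS, 3 WT saline, 2 KO LPS and 1 KO saline array. With the groups in the model, limma called 4286 genes between the lower (1 to 11) and the upper (12 to 22) array numbers. What the array number stands for was not given.

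In the WT hypothalamus, Mt1 and Mt2 rose with LPS by 1.81-fold and 2.23-fold, while Mt3 and the transporters were not called. In the KO hypothalamus both genes rose too, by 1.43-fold and 1.64-fold. Called means an adjusted p under 0.05 in limma, a linear model with one mean per group, after Benjamini-Hochberg adjustment over all genes. So 2 of the 5 genes were called higher in each genotype, beside 1.42% of all genes called higher in WT (1.8% in either direction) and 1.08% in KO (1.34% in either direction). In tissue RNA, a change in the number of cells of a type and a change in RNA per cell cannot be told apart.

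Mt1, one of the paired general metallothioneins, was at -0.64, -0.51, -0.84 and -0.50 in the 4 WT saline arrays. In the 7 WT LPS arrays it ran from 0.038 to 0.38 with a median of 0.25. Every WT LPS array lay above every WT saline array. The difference was 0.86 (SE 0.07, 95% confidence interval 0.71 to 1.01, adjusted p = 2.66e-08, limma). In KO saline arrays Mt1 was at -0.55, -0.29, -0.56 and -0.57, and in KO LPS arrays it ran from -0.14 to 0.19 with a median of 0.012. Again every LPS array lay above every saline array, and KO saline replicate 2 stood above the other 3 saline arrays. The KO difference was 0.51 (SE 0.07, 95% confidence interval 0.36 to 0.67, adjusted p = 9.61e-05, limma). Without the 4 arrays with choroid plexus or pituitary genes high the differences were 0.86 in WT and 0.58 in KO, both still called (adjusted p = 1.87e-06 and 0.000321, limma). Within arrays 1 to 11 the WT difference was 0.94 and called, and within arrays 12 to 22 the KO difference was 0.48 and called. The other within-range differences each set 2 LPS arrays against 1 saline array, which is assumed to vary like the other groups: 0.61 in KO within arrays 1 to 11 (adjusted p = 0.0420, limma) and 0.64 in WT within arrays 12 to 22 (adjusted p = 0.153, limma).

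Mt2, the other general metallothionein, was at -1.04, -0.73, -1.37 and -0.40 in WT saline arrays, the widest spread of the 20 groups of values. In WT LPS arrays it ran from -0.26 to 0.61 with a median of 0.31. The lowest WT LPS array, replicate 6, still lay above the highest WT saline array. The difference was 1.16 (SE 0.15, 95% confidence interval 0.84 to 1.47, adjusted p = 2.13e-05, limma). In KO saline arrays Mt2 was at -0.86, -0.31, -0.44 and -0.55, and in KO LPS arrays it ran from -0.012 to 0.50 with a median of 0.23. The KO groups did not overlap either. The KO difference was 0.71 (SE 0.15, 95% confidence interval 0.40 to 1.03, adjusted p = 0.0108, limma). This call rests on KO saline replicate 1, the lowest of its group: without it the difference was 0.60 (adjusted p = 0.0888, limma). Without the 4 arrays with neighbouring-tissue genes high, the differences were 1.12 in WT (adjusted p = 0.00122, limma) and 0.78 in KO (adjusted p = 0.0419, limma). Within arrays 12 to 22 neither difference was called, at 0.58 in WT (adjusted p = 0.770, limma) and 0.62 in KO (adjusted p = 0.179, limma), while within arrays 1 to 11 the WT difference was 1.35 and called. The KO difference there was 0.98 (adjusted p = 0.0282, limma), but it sets 2 LPS arrays against KO saline replicate 1 alone, the array on which the KO call rests. Complete separation of LPS above saline arrays, seen for Mt1 and Mt2 in both genotypes, held for 1.63% of all genes in WT and 1.21% in KO.

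**Figure D1:**
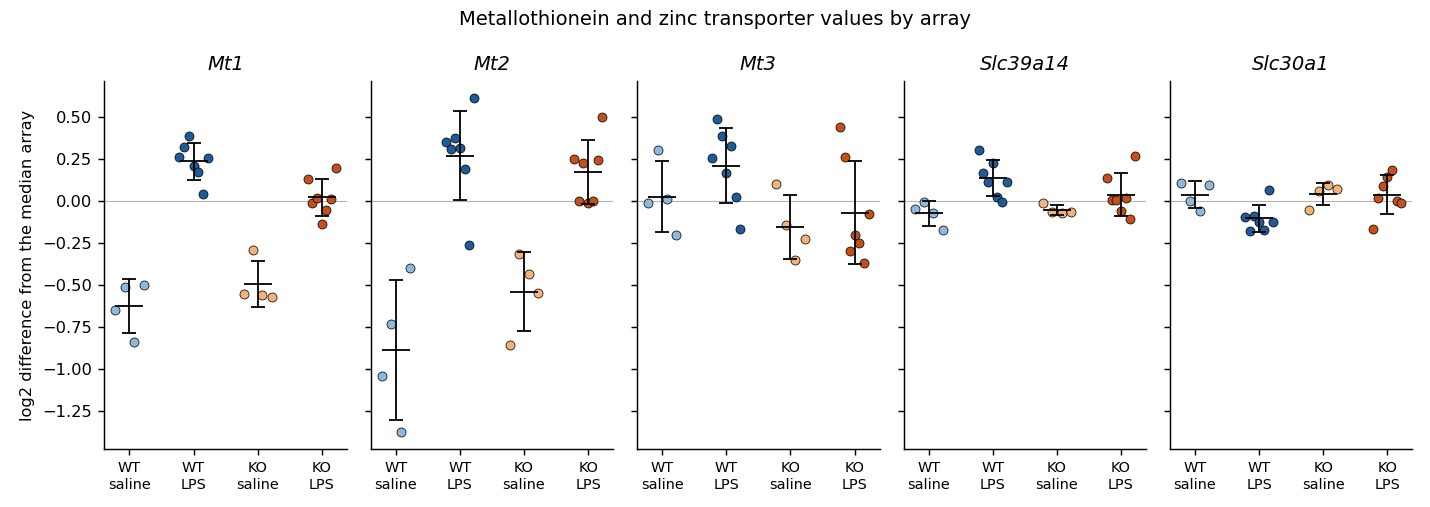
Each point is 1 array, and the vertical axis gives the log2 difference from the median array for Mt1, Mt2, Mt3, Slc39a14 and Slc30a1 in the 4 groups (WT saline and KO saline, n = 4; WT LPS and KO LPS, n = 7); long bars are group means and whiskers 1 SD. In Mt1 and Mt2 all LPS points lie above all saline points of the same genotype, whereas the points of Mt3 and both transporters overlap.

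Mt3, the brain metallothionein, showed no called response. It was at -0.014, 0.30, 0.014 and -0.20 in WT saline arrays and ran from -0.17 to 0.49 with a median of 0.25 in WT LPS arrays. The groups overlapped, with 3 of 7 LPS arrays above all saline arrays. The WT difference was 0.18 (SE 0.14, 95% confidence interval -0.10 to 0.47, adjusted p = 0.9997, limma). In KO arrays Mt3 was at 0.099, -0.14, -0.35 and -0.23 after saline and ran from -0.37 to 0.44 with a median of -0.20 after LPS. The KO LPS arrays surrounded the saline arrays on both sides, and the difference was 0.085 (SE 0.14, 95% confidence interval -0.20 to 0.37, adjusted p = 0.9998, limma). An effect in Mt3 of the size of the WT difference in Mt1, 0.86, lies outside both intervals.

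The 3 metallothioneins were set against each other within each array, by probe set signal. The difference Mt1 minus Mt3 was 0.67 higher in LPS than in saline arrays of WT (two-sided exact permutation p = 0.00303 over 330 relabellings, 0.0182 after Benjamini-Hochberg adjustment over 6 such tests). In KO it was 0.43 higher (exact permutation p = 0.0394, adjusted 0.0473). Mt2 minus Mt3 was 0.97 higher in WT (exact permutation p = 0.00606, adjusted 0.0182) and 0.63 higher in KO (exact permutation p = 0.0273, adjusted 0.0473). With all arrays included, the signals of Mt1 and Mt2 thus changed more than that of Mt3. Whether signals of different probe sets scale alike with transcript amount was not tested. Mt2 minus Mt1 was 0.30 higher in WT, which missed the threshold (exact permutation p = 0.0788, adjusted 0.0788), and 0.20 higher in KO (exact permutation p = 0.0394, adjusted 0.0473). Each of the 3 KO results lost its call in 10 of 12 alternatives, with values still above 0, and without the 4 arrays with neighbouring-tissue genes high none of the 6 results was called, with adjusted p from 0.0714 to 0.226 (exact permutation) and 0.71 for Mt1 minus Mt3 and 0.97 for Mt2 minus Mt3 in WT. Without WT saline replicate 4 the WT difference of Mt2 minus Mt1 was 0.42 and was called (exact permutation, adjusted p = 0.0333), as it was without WT LPS replicate 6 at 0.35 (exact permutation, adjusted p = 0.0394). Mt1 and Mt2 are close paralogs, and binding of one transcript to the other's probes was not tested. Array number was not taken into account in these 6 tests.

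Slc39a14, the importer, stood closest to a call among the genes not called. It was at -0.046, -0.0033, -0.073 and -0.17 in WT saline arrays and ran from -0.0035 to 0.30 with a median of 0.11 in WT LPS arrays. LPS arrays were above all saline arrays in 6 of 7 cases, and the lowest, replicate 6, lay within the saline values. The difference was 0.21 (SE 0.06, 95% confidence interval 0.08 to 0.34), with an unadjusted p = 0.00274 and an adjusted p = 0.122 (limma), which misses the threshold, and the adjusted p ran from 0.0516 to 0.817 over the alternatives. In KO arrays Slc39a14 was at -0.010, -0.064, -0.072 and -0.068 after saline and ran from -0.11 to 0.27 with a median of 0.0073 after LPS. The LPS arrays spread around the narrow saline group, 5 above it and 1 below. The KO difference was 0.092 (SE 0.06, 95% confidence interval -0.04 to 0.22, adjusted p = 0.9998, limma).

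Slc30a1, the exporter, was at 0.11, -0.00051, -0.059 and 0.095 in WT saline arrays and ran from -0.18 to 0.065 with a median of -0.12 in WT LPS arrays. In 6 of 7 WT LPS arrays it lay below all saline arrays, and replicate 6 lay among them. The WT difference was -0.14 (SE 0.06, 95% confidence interval -0.26 to -0.02, adjusted p = 0.567, limma). In KO arrays it was at -0.052, 0.058, 0.092 and 0.072 after saline and ran from -0.16 to 0.19 with a median of 0.020 after LPS. The KO groups overlapped, with a difference of -0.0050 (SE 0.06, 95% confidence interval -0.12 to 0.11, adjusted p = 0.9998, limma). The importer and exporter values of WT thus lay on opposite sides of 0, neither one called. WT LPS replicate 6 was the lowest of its group in Mt1, Mt2 and Slc39a14 and the highest in Slc30a1.

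After LPS, none of the 5 genes was called between KO and WT, beside 0.0401% of all genes, which is 8 genes. That count of 8 was sensitive to single arrays: it was 47 without KO LPS replicate 1, 2 without KO LPS replicate 6, 4 without KO LPS replicate 3, WT LPS replicate 3 or WT LPS replicate 4, and 5 without KO LPS replicate 4 or 5. Mt1 was lower in KO by value, with 5 of 7 KO LPS arrays below all WT LPS arrays. The difference was -0.21 (SE 0.06, 95% confidence interval -0.34 to -0.08), with an unadjusted p = 0.00246 and an adjusted p = 0.294 (limma). With array number as a term it was -0.21, within arrays 1 to 11 it was -0.21, and within arrays 12 to 22 it was -0.14. For Mt2 no KO LPS array lay outside the WT range, and the difference was -0.098 (SE 0.13, 95% confidence interval -0.37 to 0.17, adjusted p = 0.805, limma). The Mt3 difference was -0.28 (SE 0.12, adjusted p = 0.397, limma), with 4 of 7 KO arrays below all WT arrays. It was -0.095 with array number as a term and 0.026 within arrays 1 to 11. For Slc39a14 the difference was -0.097 (SE 0.05, adjusted p = 0.490, limma). For Slc30a1 it was 0.14 (SE 0.05, adjusted p = 0.344, limma), with 3 of 7 KO arrays above all WT arrays, and 0.089 with array number as a term. Without the 4 arrays with neighbouring-tissue genes high the values were -0.22 for Mt1, -0.12 for Mt2, -0.22 for Mt3, -0.11 for Slc39a14 and 0.12 for Slc30a1, none called. A p that misses the threshold does not show that the genotypes are alike, and the intervals give what the data allow.

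After saline, none of the 5 genes was called either, beside 0.00502% of all genes, which is 1 gene, or 0 without WT saline replicate 1, KO saline replicate 1 or WT saline replicate 4 and 2 without WT LPS replicate 4 or 7. Mt2 had the largest value, 0.35 higher in KO (SE 0.17, 95% confidence interval -0.0089 to 0.70, adjusted p = 0.840, limma). With array number as a term it was 0.26. It was -0.032 within arrays 12 to 22, which hold 1 WT saline array, and 0.19 within arrays 1 to 11, which hold 1 KO saline array. Mt1 differed by 0.13 (SE 0.08, adjusted p = 0.840, limma), Mt3 by -0.18 (SE 0.16, adjusted p = 0.853, limma) and each transporter by 0.021 or less. With array number as a term the values were 0.035 for Mt3, -0.053 for Slc30a1 and 0.064 for Slc39a14. Without the 4 arrays with neighbouring-tissue genes high they were 0.056 for Mt1, 0.22 for Mt2, -0.20 for Mt3, 0.034 for Slc39a14 and 0.026 for Slc30a1, none called.

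The test of whether the LPS effect differs between genotypes, the interaction, called 0 of 19935 genes (0%), with 327 at an unadjusted p under 0.05 in limma. For Mt1 the KO effect was smaller by value, with a difference of effects of -0.34 (SE 0.10, 95% confidence interval -0.56 to -0.13). Its unadjusted p = 0.00311 was the 8th smallest of all genes, and its adjusted p rounded to 1.0 (limma). That rank depends on how few small p-values this contrast held. Between KO and WT after LPS, the Mt1 unadjusted p of 0.00246 (limma) ranked only 164th. Within arrays 1 to 11 the Mt1 value was -0.32, and within arrays 12 to 22 it was -0.17. For Mt2 the value was -0.44 (SE 0.22, 95% confidence interval -0.89 to 0.0013, unadjusted p = 0.0506, adjusted p = 1.0, limma). With array number as a term it was -0.43. It was -0.37 within arrays 1 to 11 and 0.048 within arrays 12 to 22. The lower range holds 1 KO saline array and the upper range 1 WT saline array. The values of Mt3, Slc39a14 and Slc30a1 were -0.099, -0.12 and 0.13, with SEs of 0.20, 0.09 and 0.08. Since no member passed, the larger WT effects of Mt1 and Mt2 were not shown to differ from the KO effects after adjustment.

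**Figure D2:**
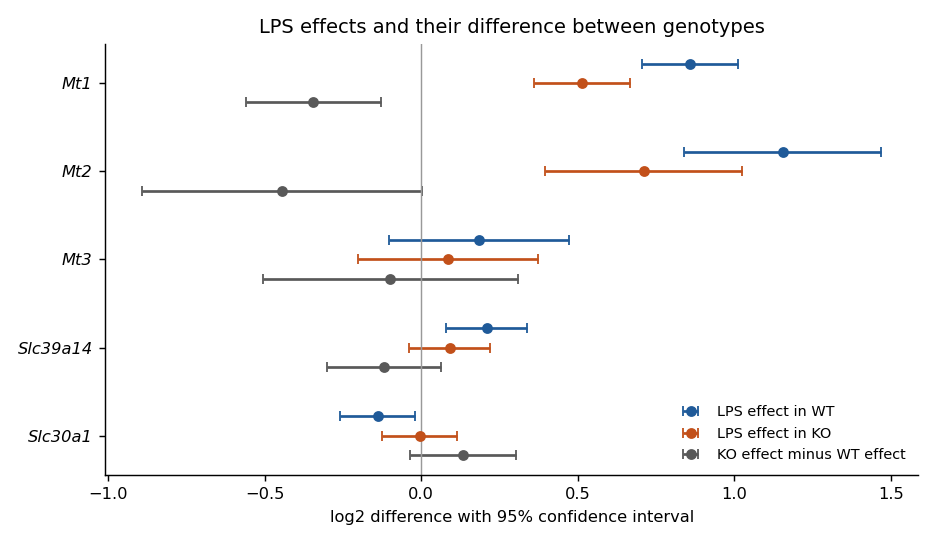
The horizontal axis gives log2 differences with 95% confidence intervals for each gene: the LPS effect in WT, the LPS effect in KO, and the KO effect minus the WT effect. The intervals of Mt1 and Mt2 exclude 0 in both genotypes, the interval of the difference of effects excludes 0 for Mt1 before adjustment over genes and just includes it for Mt2, and Mt3 includes 0 throughout.

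Ordered by group mean, Mt1 stood at 0.23 ± 0.11 (SD, n = 7) in WT LPS, 0.021 ± 0.11 (SD, n = 7) in KO LPS, -0.49 ± 0.14 (SD, n = 4) in KO saline and -0.62 ± 0.16 (SD, n = 4) in WT saline. The order of Mt2 was the same, at 0.27 ± 0.27 (SD, n = 7), 0.17 ± 0.19 (SD, n = 7), -0.54 ± 0.23 (SD, n = 4) and -0.89 ± 0.42 (SD, n = 4). In both genes the step between the treatments separated the arrays, and the neighbours of one treatment overlapped. For Mt3 the order was WT LPS at 0.21 ± 0.22 (SD, n = 7), WT saline at 0.026 ± 0.21 (SD, n = 4), KO LPS at -0.070 ± 0.30 (SD, n = 7) and KO saline at -0.15 ± 0.19 (SD, n = 4), and all neighbours overlapped. Slc39a14 stood highest in WT LPS, at 0.14 ± 0.11 (SD, n = 7), followed by KO LPS at 0.038 ± 0.13 (SD, n = 7), KO saline at -0.053 ± 0.029 (SD, n = 4) and WT saline at -0.074 ± 0.073 (SD, n = 4). Slc30a1 stood lowest in that same group, at -0.10 ± 0.08 (SD, n = 7), with the other 3 groups between 0.036 and 0.042. Neighbouring groups overlapped in both transporter genes.

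Array number moved with 2 of the 5 genes, beside 4286 of all 19935 genes called in the same fit. Arrays 12 to 22 differed from arrays 1 to 11 by -0.43 for Mt3 (SE 0.06, adjusted p = 3.04e-05, limma) and by 0.12 for Slc30a1 (SE 0.04, adjusted p = 0.0227, limma), in the fit with the 4 groups. In KO LPS arrays, Mt3 had a mean of 0.35 over the 2 arrays numbered 1 to 11 and of -0.24 over the 5 numbered 12 to 22, and in WT LPS arrays of 0.32 over 5 and -0.073 over 2. For Mt1 the same difference was -0.016 (SE 0.06, adjusted p = 0.903, limma), for Mt2 0.16 (SE 0.11, adjusted p = 0.354, limma) and for Slc39a14 -0.086 (SE 0.04, adjusted p = 0.195, limma). Since 5 of 7 KO LPS arrays and 2 of 7 WT LPS arrays carry numbers 12 to 22, the genotype values of Mt3 and Slc30a1 are given above with array number as a term too.

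**Figure D3:**
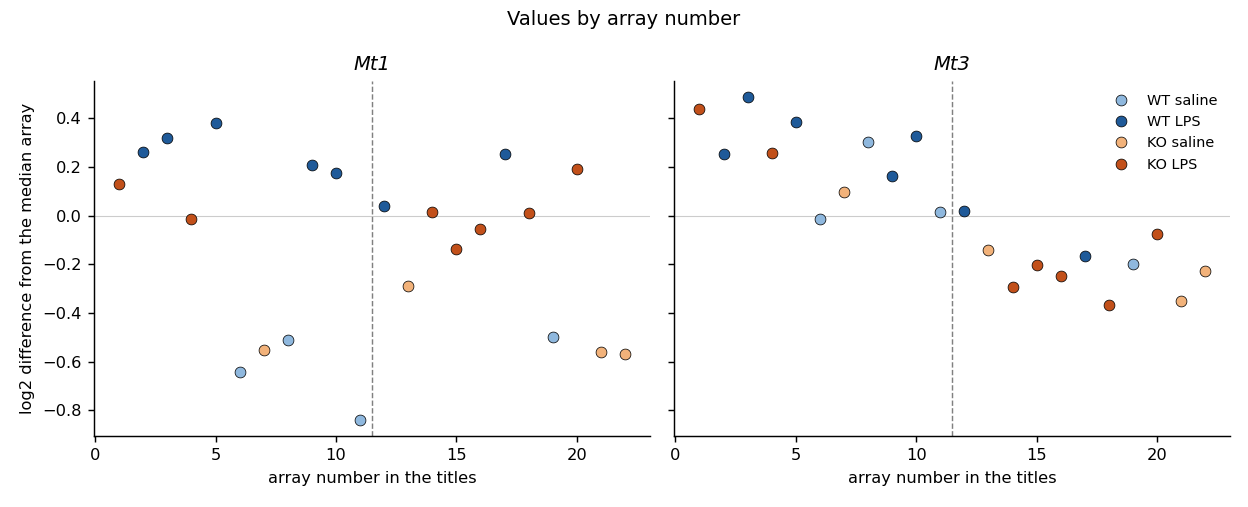
The horizontal axis is the array number in the titles, with a dashed line between 11 and 12, and the vertical axis the log2 difference from the median array for Mt1 and Mt3, coloured by group. Mt3 lies lower in arrays 12 to 22 in every group, while Mt1 separates LPS from saline arrays on both sides of the line.

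Mt1 and Mt2 also varied together among arrays of one group. In the 7 KO LPS arrays their values correlated with r = 0.889 (exact permutation p = 0.000794, 0.0159 after Benjamini-Hochberg adjustment over 20 pairs) and a Spearman rho of 0.929 (exact permutation p = 0.00675). Without the 2 arrays farthest from the Mt1 median r was 0.708. In the 7 WT LPS arrays r was 0.767 (exact permutation p = 0.0617, adjusted 0.309) and rho 0.643 (exact permutation p = 0.139), and r fell to 0.334 without the 2 farthest arrays, so this value rests on them. No other pair of the 5 genes passed the adjustment in either group. The next smallest p was that of Mt1 and Slc39a14 in KO LPS arrays, with r = 0.833 (exact permutation p = 0.0183, adjusted 0.183), rho = 0.571 (exact permutation p = 0.200) and r = 0.610 without the 2 farthest arrays. Over all 22 arrays, with the mean of each group in each array number range subtracted, Mt1 and Mt2 correlated at 0.843, given as a description.

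**Figure D4:**
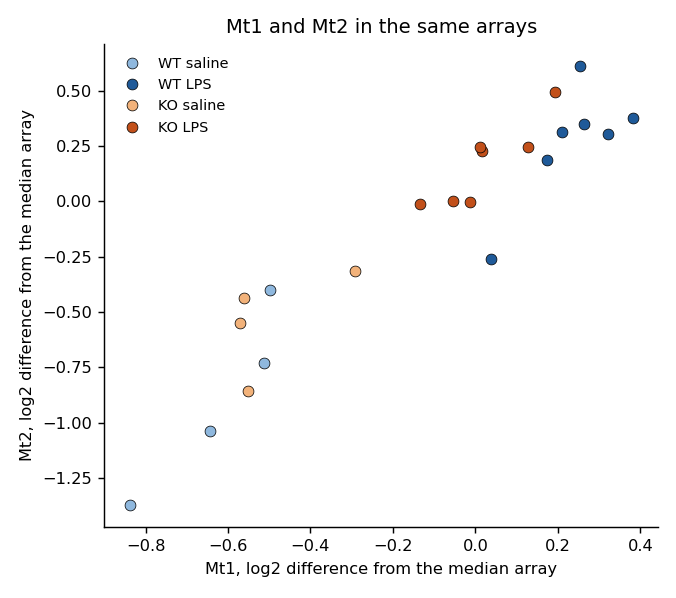
Each point is 1 array, with the log2 difference from the median array of Mt1 on the horizontal axis and of Mt2 on the vertical axis, coloured by group. LPS arrays of both genotypes occupy the upper right, saline arrays the lower left, and WT LPS replicate 6 lies lowest of its group on both axes.

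For each gene, the 3 genes with the most similar pattern were named by the correlation over all 22 arrays after subtraction of the group means. The arrays share 1 normalization and array numbers, so these values are descriptions. Nearest to Mt1 were Mt2 (r = 0.812), the interferon-induced gene Rtp4 (r = 0.752) and the quinone reductase gene Cryz (r = 0.731). Nearest to Mt2 were Ier3, an early response gene (r = 0.858), Hagh, which encodes glyoxalase II (r = 0.830), and Mt1. Nearest to Mt3 were the neuronal tubulin gene Tubb3 (r = 0.952), Sez6l2 (r = 0.933) and Pacs2 (r = 0.925). With the means of both array number ranges subtracted too, the value of Tubb3 was 0.920 and those of Sez6l2 and Pacs2 were 0.715 and 0.772. Nearest to Slc39a14 were Vmn2r96 (r = 0.793), the cathepsin gene Ctsz (r = 0.780) and Eml2 (r = 0.743), and nearest to Slc30a1 were Cdr1os (r = 0.880), Zfp60 (r = 0.861) and DQ267101 (r = 0.853). Mt3 itself correlated with Mt1 at 0.308 and with Mt2 at -0.132 on this measure, and at 0.50 and 0.18 with the array number ranges subtracted too.

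Over all 22 arrays, no other gene of the zinc-handling list was called in any of the 5 contrasts. The list held 10 exporter genes (Tmem163 and the other SLC30 genes), 13 other SLC39 importers and Mt4, Mtf1 and the zinc receptor gene Gpr39, and all 26 were measured. Their median LPS difference was -0.025 in WT and -0.0034 in KO, with all genes at -0.011 and -0.0089. The range in WT was from -0.16 to 0.087, which places each of them below the Slc39a14 value of 0.21. The smallest adjusted p among them belonged to the manganese and zinc exporter Slc30a10, at -0.11 in WT (adjusted p = 0.599, limma) and -0.16 in KO (adjusted p = 0.133, limma). Mt4, the metallothionein of stratified epithelia and neighbour of Mt3, differed by -0.018 in WT (SE 0.06) and 0.056 in KO (SE 0.06). Mtf1, the zinc-sensing factor, differed by 0.027 in WT (SE 0.05) and 0.056 in KO (SE 0.05).

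**Figure D5:**
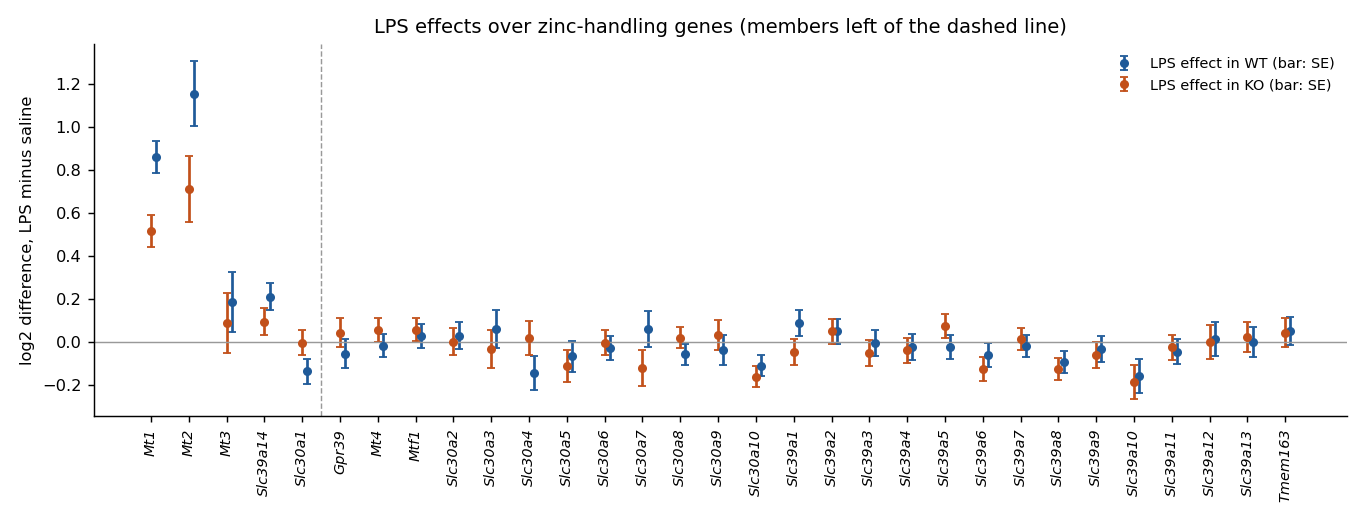
Points are LPS minus saline log2 differences in WT and KO with SE bars, for the 5 genes (left of the dashed line) and the 26 other zinc-handling genes. Mt1 and Mt2 stand above all others in both genotypes, and the 26 other genes lie between -0.19 and 0.087.

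Genes tied to the known inducers of Mt1 and Mt2 were counted as well. The lists were chosen with earlier results of these data known, so the counts are descriptions. Of all genes, 1.42% were called higher with LPS in WT and 1.08% in KO. Of 6 transcription factors of metallothionein promoters, 2 were called higher with LPS in WT: the oxidative stress factor Nfe2l2 at 0.34 (SE 0.06, adjusted p = 0.00143, limma) and Stat3, which relays IL-6 signals, at 0.28 (SE 0.06, adjusted p = 0.0103, limma). In KO their values were 0.21 and 0.15 and neither was called, and the glucocorticoid receptor gene Nr3c1 was lower by value in WT at -0.20 (adjusted p = 0.0691, limma) and called lower in KO at -0.24 (SE 0.05, adjusted p = 0.0190, limma). The Stat3 call was lost without WT saline replicate 2, at 0.26 (adjusted p = 0.0661, limma). The Nr3c1 call was lost in 6 of 30 alternatives, among them without KO saline replicate 1 at -0.22 and without KO saline replicate 2 at -0.24 (adjusted p = 0.0982 and 0.0610, limma). Of 11 measured oxidative and metal stress genes only Txnip, which inhibits thioredoxin, was called, at 0.88 in WT and 0.91 in KO (adjusted p = 3.69e-08 and 2.49e-08, limma). The median of these 11 genes was -0.033 in WT and -0.032 in KO.

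Of 14 measured glucocorticoid-responsive genes, 12 were called higher with LPS in WT and 11 in KO, with medians of 0.58 and 0.64. Among all genes 1.42% were called higher in WT and 1.08% in KO. The list was chosen with earlier results of these data known, so its counts are descriptions. The smallest p in each genotype was that of the kinase gene Sgk1, at 1.68 in WT and 1.80 in KO. Fkbp5, the gene of a cochaperone of the glucocorticoid receptor, was at 1.05 and 0.87. Zbtb16 was at 1.43 and 1.46, and Arrdc2 at 0.67 and 0.79. Within arrays 12 to 22 the WT median was 0.51, and within arrays 1 to 11 the KO median was 0.61. Each of these sets LPS arrays against 1 saline array, so calls there are not counted. None of the 14 was called between KO and WT after LPS, where their median was -0.050. Of 15 STAT3-linked and acute-phase genes, a list chosen in the same way, 10 were called higher in WT and 4 in KO. Their medians were 0.40 and 0.22, and the shares of all genes called higher were again 1.42% and 1.08%. Against 1 saline array each, the median of these 15 genes was 0.38 in WT within arrays 12 to 22 and 0.35 in KO within arrays 1 to 11. Those with the smallest p were Lcn2, an iron-carrier-binding protein gene, at 3.39 and 2.31, the oncostatin M receptor gene Osmr at 1.23 and 0.96, Steap4 at 0.80 and 0.60, and Il4ra at 0.38 and 0.30. Between KO and WT after saline, 2 of the 15 had values above 0, with a median of -0.079 and none called. None was called in the interaction, where the median was -0.16. After LPS all 15 values of KO against WT lay below 0. Their median was -0.24, or -0.20 with array number as a term. Of the 15, 1 was called, Lcn2 at -1.04 (adjusted p = 0.0164, limma). That call was lost in 8 of 30 alternatives, among them array number as a term, where Lcn2 was at -0.88 (adjusted p = 0.0722, limma). It was also lost without WT LPS replicate 3, WT LPS replicate 4 or KO LPS replicate 6, at -0.98, -0.97 and -1.04 (adjusted p = 0.0570, 0.0642 and 0.0587, limma). The part of glucocorticoid or STAT3 signalling in the Mt1 and Mt2 values was not tested.

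Marker lists of cell types were set beside these values. None of 12 astrocyte markers was called in either LPS contrast, with medians of 0.026 in WT and 0.013 in KO, and their mean over the list ranged from -0.082 to 0.020 in WT saline and from -0.073 to 0.071 in WT LPS arrays. In KO it ranged from -0.096 to 0.037 after saline and from -0.056 to 0.042 after LPS. None of 12 neuron markers, which include Tubb3, was called. Of 11 measured endothelial markers, 7 were called lower with LPS in each genotype, and their mean over the list ranged from 0.18 to 0.33 in WT saline arrays and from -0.19 to -0.090 in WT LPS arrays. In KO it ranged from 0.27 to 0.40 after saline and from -0.096 to 0.079 after LPS. Without the 4 arrays with neighbouring-tissue genes high, 6 were called lower in WT and 5 in KO. Within arrays 1 to 11, 7 were called lower in WT, and within arrays 12 to 22, 4 were in KO. Against 1 saline array each, the endothelial median was -0.24 in WT within arrays 12 to 22 and -0.31 in KO within arrays 1 to 11. Of 11 measured microglia markers, 2 were called lower with LPS in WT and none in KO. Those 2 were Cx3cr1 at -0.46 (adjusted p = 0.00123, limma) and Sall1 at -0.34 (adjusted p = 0.000631, limma). Among all 19935 genes, 75 were called lower in WT and 51 in KO. None of the 11 was called in the interaction, where their median was 0.085. Within arrays 12 to 22, with 1 WT saline array, their WT median was -0.16. The microglia list had a median of -0.11 in WT and -0.019 in KO, and its mean ranged from 0.0069 to 0.14 in WT saline, -0.12 to -0.0094 in WT LPS, -0.012 to 0.077 in KO saline and -0.080 to 0.053 in KO LPS arrays. The part of endothelial cells and microglia in the values of Mt1 and Mt2 was not tested.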

How the data were processed

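Expression was measured in the hypothalamus on 22 Affymetrix arrays from 200 ng of RNA each. The deposited table gives 28815 probe sets in log2 units, made by the authors with RMA (background correction, quantile normalization, probe summary). The submitters' processing notes name RMA only, and the genome build was not given in the sources used here. Medians of probe sets were all within 7.02e-07 of 0, so the authors' values are differences from the median array and dim genes cannot be filtered. No source used here names the log base, which was taken as 2.

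Gene symbols came from the platform annotation and were updated by gene ID through RefSeq (GRCm38.p6, used for names and for the promoter sequences). Of 28815 probe sets, 21780 listed 1 symbol (21689 matched by gene ID), 1605 several and 5430 none; the last 2 kinds were left out. Probe sets of one gene were averaged in 998 genes, which gave 19935 genes. Identical arrays numbered 0, and correlations between 2 arrays reached at most 0.601.

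The model was fitted in R 4.3.3 with limma 3.58.1 (a mean for each group, all 22 arrays, moderated by empirical Bayes) and had 5 two-sided contrasts and calls at an adjusted p under 0.05 (Benjamini-Hochberg over all genes). The fit was tested on simulated data. Errors are SEs of the fit for differences and SDs for group means. Replicates were numbered in deposition order and pair no arrays. The members and gene lists were chosen with earlier results of these data known. Beside the 5 genes, the rule named Mt4, Mtf1, up to 4 called genes of each zinc, regulator and inducer list, and the 3 genes most alike each member; Il6, Slc30a10, the markers Cx3cr1 and Sall1, and Ttr, Gh and Prl were named outside it. Alternatives were array number as a term or within its ranges, centred arrays, the groups compared alone, robust moderation, the probe set with the largest SD, and leaving out each array or the 4 arrays with neighbouring-tissue genes high. The same alternatives for genes and counts of the lists were added after seeing the data.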

Additional observations from a re-analysis of the deposited data

Results flagged for a closer look

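Of 20 sets of values (5 genes in 4 groups) tested for 1 array far from the others, 3 had one, where chance alone marks about 1 in 20. Mt1 in KO saline replicate 2 was at -0.29, with the nearest of the other 3 arrays at -0.55. That array also held high pituitary genes, with Gh at 3.96 and Prl at 2.90, and Ttr at 1.23. The KO difference of Mt1 was 0.58 without the 4 arrays with neighbouring-tissue genes high, against 0.51 with them. Slc39a14 in KO saline replicate 1 was at -0.010, with the nearest at -0.064, in a group that ranged from -0.072 to -0.010. Slc30a1 in WT LPS replicate 6 was at 0.065, with the nearest at -0.090, and the same array was the lowest WT LPS array in Mt1, Mt2 and Slc39a14.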

How the results depend on the processing

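Alternatives, 30 for most results, kept the direction of every LPS effect of Mt1, Mt2, Mt3 and Slc39a14. Calls of the Mt1 effect in WT and of the Mt2 effects in WT and KO were lost within arrays 12 to 22, at 0.64, 0.58 and 0.62 (limma). The WT values there set 2 LPS arrays against 1 saline array, and the KO value 5 LPS arrays against 3 saline arrays. The Mt2 effect in KO ranged from 0.60 to 0.79 when 1 array was left out. The following values changed sign, none of them called. Within arrays 12 to 22 Mt2 was at 0.016 for KO against WT after LPS, -0.032 after saline and 0.048 for the interaction, and Slc30a1 at 0.0073 for LPS in KO and -0.021 for KO against WT after saline. Within arrays 1 to 11 Mt3 was at 0.026 after LPS and 0.028 for the interaction, and Slc30a1 at -0.068 after saline. With array number as a term the saline values were 0.035 for Mt3 and -0.053 for Slc30a1. Leaving out 1 array gave -0.013 to 0.044 for Slc39a14 after saline, -0.036 to 0.028 for LPS on Slc30a1 in KO, and -0.025 to 0.038 for Slc30a1 after saline. The number of genes called was 45 for LPS in WT within arrays 12 to 22, and for LPS in KO 145 within arrays 1 to 11 and 166 within arrays 12 to 22. For KO against WT after LPS it was 2 with array number as a term, 0 within either range, 1 without the 4 arrays with neighbouring-tissue genes high, 1 with the groups compared alone, and 2 to 47 leaving out 1 array. After saline it was 0 within either range and with the groups alone, and 0 to 2 leaving out 1 array. Without the 4 arrays the pair differences lost their calls, at 0.19 for Mt2 minus Mt1, 0.46 for Mt1 minus Mt3 and 0.65 for Mt2 minus Mt3 in KO, and at 0.71 and 0.97 for the last 2 in WT. Leaving out 1 array gave 0.11 to 0.25, 0.32 to 0.50 and 0.43 to 0.72 in KO, and 0.21 to 0.42 for Mt2 minus Mt1 in WT. The largest-SD probe set changes nothing for genes with 1 probe set. For the pairs, only leaving out 1 array or the 4 arrays was run. Array number, with a difference of -0.43 for Mt3 between its ranges, was thus not taken into account in the pair differences. The cause of the changes over the alternatives was not tested. No paired analysis was possible because the labels give the groups no shared replicate numbers.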
